A study of Mus musculus with 12 samples.

Results

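The sterol and fatty acid synthesis genes examined here were 8 genes taken by name, Srebf1, Fasn, Scd1, Acaca, Elovl6, Hmgcs1, Sqle and Insig1, out of 55414 genes measured by RNA-seq in the mouse lung. All 8 passed the filter on low values, which kept 15148 genes with at least 1 TPM (transcript abundance scaled by gene length and library) in at least 6 of 12 lungs. Lipopolysaccharide (LPS), a component of the bacterial outer membrane that causes acute lung injury, was instilled at 50 µg into 12 mice of the C57BL/6 J background, and total RNA was taken from the lung on day 4. In 6 mice, IL-10 B-KO, the floxed Il10 gene was deleted by Mb1-Cre, a recombinase expressed from the Cd79a (Mb1) locus and therefore active in B cells, and the other 6 were their IL-10 B-WT controls. All animals received LPS, were described as age- and sex-matched with no age given in the sources used here, and had their lungs perfused and lavaged before excision, so that there was no uninjured lung to compare with and loose airspace cells were partly washed out. They are called knockout and control lungs here, numbered by replicate. The comparison asks whether the loss of Il10 in B cells went along with a different expression of lipid synthesis genes in the injured lung.

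Cells make cholesterol from acetyl-CoA through the mevalonate pathway and make fatty acids from the same precursor through malonyl-CoA. Both routes are switched on by the SREBP transcription factors, which wait in the endoplasmic reticulum membrane and are released to the Golgi when sterols run low, while INSIG proteins hold them back when sterols are plentiful. In the lung, the alveolar type 2 cell depends on fatty acid synthesis for the phospholipids of surfactant, and macrophages handle the lipid that surfactant leaves behind.

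Of the 8 genes, Srebf1 encodes SREBP-1, the regulator most tied to fatty acid synthesis. Insig1 encodes the retention protein and is itself a target of SREBP. Hmgcs1 makes HMG-CoA, the substrate of the rate-limiting reductase of the mevalonate pathway, and Sqle oxidizes squalene, the first oxygen-requiring step toward sterols. Acaca makes malonyl-CoA, Fasn builds palmitate from it, Elovl6 extends palmitate to stearate, and Scd1 puts a double bond into stearate.

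Promoter windows of 250 bases before to 50 bases after a start site were taken from RefSeq on GRCm38.p6 and existed for 6 of the 8 genes, in 8 windows. The following sequences are shown because SREBP acts on such promoters and because these 3 genes stand for the sterol enzymes, the sterol sensor and the fatty acid enzymes in the results. They are written 5′ to 3′ along the strand of the gene and end before the start of transcription in RefSeq or, where it lies further upstream, before the gene start in GENCODE. Distances below are counted from the RefSeq start. The Hmgcs1 stretch is chr13:119690101-119690350 on the plus strand, with capitals at a match of the sterol regulatory element (SRE, TCACNCCAC) and at CCAAT boxes. The Insig1 stretch is chr5:28071162-28071362 on the plus strand, with capitals at an E-box (CACGTG) and a CCAAT box. The Fasn stretch is chr11:120824548-120824797 on the minus strand, with capitals at CCAAT boxes, of which a pair overlaps. A CCAAT box on the opposite strand reads ATTGG.
Hmgcs1: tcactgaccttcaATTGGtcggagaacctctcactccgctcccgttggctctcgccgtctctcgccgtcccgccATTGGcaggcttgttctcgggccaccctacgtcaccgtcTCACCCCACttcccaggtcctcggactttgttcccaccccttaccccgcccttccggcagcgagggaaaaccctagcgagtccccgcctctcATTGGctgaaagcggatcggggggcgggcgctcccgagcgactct
Insig1: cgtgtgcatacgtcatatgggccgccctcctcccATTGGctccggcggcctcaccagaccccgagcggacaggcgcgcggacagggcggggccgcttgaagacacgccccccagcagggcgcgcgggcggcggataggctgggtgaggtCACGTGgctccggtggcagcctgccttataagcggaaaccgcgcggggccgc
Fasn: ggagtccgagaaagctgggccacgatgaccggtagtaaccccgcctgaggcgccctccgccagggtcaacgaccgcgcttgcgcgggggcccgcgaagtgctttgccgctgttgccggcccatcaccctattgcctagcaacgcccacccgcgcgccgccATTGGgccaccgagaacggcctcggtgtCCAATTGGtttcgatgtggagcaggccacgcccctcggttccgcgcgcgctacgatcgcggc

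Both strands were searched for these motifs and for the GC box (GGGCGG), which is not in capitals above. The SRE stood in 1.24% of 32851 windows over the genome and in 1 of the 8 windows of the members, that of Hmgcs1, at 137 bases before the start. The E-box stood in 7.15% of all windows and in that of Insig1, at 101 bases before the start. The CCAAT box stood in 37.4% of all windows and in 5 of 8 member windows, which belong to Fasn, Hmgcs1, Insig1 and Srebf1. The GC box stood in 35.7% of all windows and in 4 of 8 member windows. These are matches of letters in short windows and say nothing of binding.

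Il10, the deleted gene, measured 0.42, 0.88, 0.62, 0.05, 0 and 0.16 TPM in control lungs 1 to 6 and 0.49, 0, 0.30, 0.15, 0.58 and 0.17 TPM in knockout lungs 1 to 6. It was low in whole lung and did not separate the groups. Cd79a, the gene that carries the Cre, was at 15.3 to 258.6 TPM in controls and 0 to 5.73 TPM in knockout lungs (log2 fold change -4.16, adjusted p = 0.0222, limma), and the 6 B cell markers were all lower with an unadjusted p of at most 0.05. The share of TPM in immunoglobulin genes was 0.248 to 15.4% in controls and 0.002 to 0.0647% in knockout lungs. Some lungs stood apart from their group. The summed level of 8 markers of monocytes and interstitial macrophages was 2220 TPM in control 1 and 173.1 to 989.3 TPM in the other controls, and it was 401.4 TPM in knockout 2 and 1462 to 3010 TPM in the other knockouts. Of 8 neutrophil markers the sum was 2516 TPM in control 1 and 298.6 to 1130 TPM in the other controls, and 1068 to 7572 TPM in the knockouts, with the lowest in knockout 2. Knockout 2 also had the highest sum of B cell markers among the knockouts, 74.5 TPM, within the 66.1 to 795.0 TPM of the controls. Values without control 1 and knockout 2 are therefore given as well. Both lungs ran against their groups in the monocyte and neutrophil markers, so that leaving them out favours a separation of the genotypes. Past the threshold given below were 75 genes with all lungs and 1430 without these 2. Results under that omission are a description and no independent support.

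None of the 8 genes differed between the genotypes by the threshold used, a log2 fold change of 1 or more in size together with an adjusted p up to 0.05, which 75 of 15148 genes passed (0.495%). The smallest adjusted p of a member was 0.381 (limma). In every member the values of the 6 control and the 6 knockout lungs overlapped, whereas in 1.02% of all genes they did not. Scd1 and Srebf1 had a higher mean log2 level in knockout lungs and the other 6 a lower one, where 36.8% of all genes were lower. With each library centred on its median, 7 of 8 members and 51.3% of all genes were lower, so that the direction of Srebf1 rests on the scaling. The median log2 fold change was -0.13 over the members and 0.10 over all genes. The latter rested on control 5, without which it was -0.017 and 52.6% of all genes were lower.

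**Figure D1:**
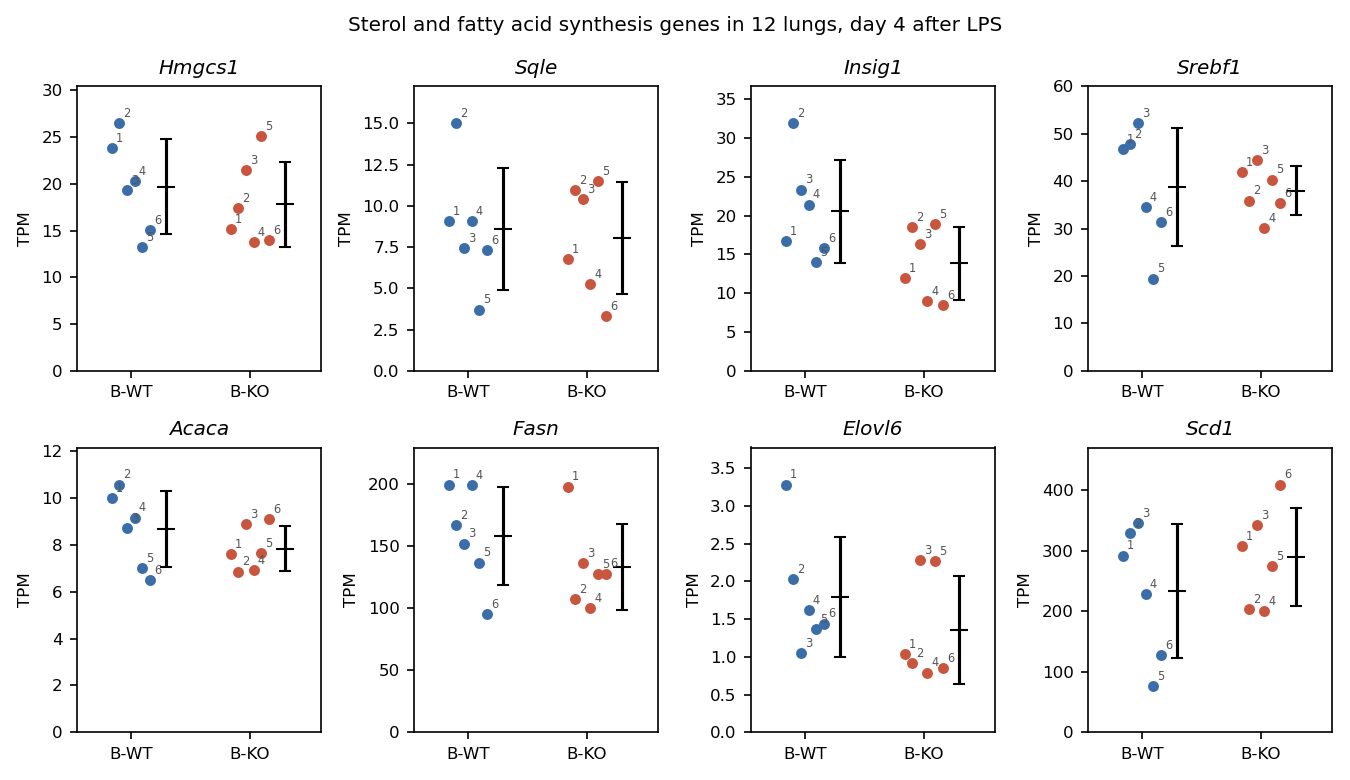
TPM of the 8 genes (vertical axes, each from 0) in 6 control (blue) and 6 knockout (red) lungs, with the replicate number beside each point and the mean ± SD beside each group. The groups overlap in all 8 panels, and in the Insig1 panel 3 knockout lungs lie below all 6 control lungs.

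Insig1 (ENSMUSG00000045294, chr5:28071363-28078662, plus strand) came closest to a difference. It stood at 16.77, 31.92, 23.36, 21.44, 13.97 and 15.86 TPM in control lungs 1 to 6 and at 11.96, 18.48, 16.36, 8.97, 18.92 and 8.44 TPM in knockout lungs 1 to 6. Of the knockout lungs, 3 lay below every control, and 3 controls lay above every knockout lung. The mean was 20.6 ± 6.60 TPM against 13.9 ± 4.69 TPM (SD, n = 6 each), and the log2 fold change was -0.55 with a standard error of 0.25 and a 95% interval of -1.08 to -0.01. The unadjusted p was 0.0450 and the adjusted p 0.381 in limma, and the two-sided exact permutation test gave p = 0.0693. Insig1 was the 1 member with an unadjusted p of at most 0.05, a level that 5.71% of all genes reached with a lower and 6.83% with a higher value in knockout lungs. Its log2 fold change was negative in each of 21 alternative analyses, from -0.81 to -0.42, with adjusted p between 0.0577 and 0.633 (limma). A change of only the filter on low values, the trend or the replicate block leaves a fold change as it is. The sign could therefore not turn in such alternatives. The unadjusted p of Insig1 stayed at or below 0.05 in 15 of the 21. It exceeded 0.05 without control 2, 3 or 4 (log2 fold changes of -0.42, -0.50 and -0.53) and without knockout 1, 4 or 6 (-0.52, -0.45 and -0.43).

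The sterol enzymes varied more between lungs than between genotypes. Hmgcs1 (ENSMUSG00000093930, chr13:119690379-119708260, plus strand) measured 23.85, 26.49, 19.30, 20.29, 13.25 and 15.07 TPM in control lungs and 15.20, 17.38, 21.45, 13.76, 25.09 and 14.00 TPM in knockout lungs. Both groups ran from about the same low to about the same high level, with means of 19.7 ± 5.04 and 17.8 ± 4.56 TPM (SD, n = 6 each) and a log2 fold change of -0.13 (95% interval -0.57 to 0.30, adjusted p = 0.783, limma). Sqle (ENSMUSG00000022351, chr15:59315077-59331192, plus strand) measured 9.09, 15.01, 7.43, 9.08, 3.71 and 7.32 TPM in controls and 6.76, 10.96, 10.39, 5.28, 11.49 and 3.31 TPM in knockout lungs. The highest lung was a control and the lowest a knockout lung, but 3 knockout lungs exceeded 5 of the 6 controls. Its means were 8.61 ± 3.70 and 8.03 ± 3.39 TPM (SD, n = 6 each), with a log2 fold change of -0.10 (95% interval -0.78 to 0.58, adjusted p = 0.905, limma). This sign turned when a single lung was left out, to 0.07 without control 2 and to 0.095 without knockout 6.

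The regulator Srebf1 (ENSMUSG00000020538, chr11:60199089-60222581, minus strand) measured 46.71, 47.82, 52.23, 34.48, 19.44 and 31.38 TPM in control lungs and 41.84, 35.88, 44.50, 30.11, 40.34 and 35.39 TPM in knockout lungs. The controls held both the 3 highest lungs and the lowest one. The means of 38.7 ± 12.4 and 38.0 ± 5.22 TPM (SD, n = 6 each) lay close together, with a log2 fold change of 0.03 (95% interval -0.44 to 0.51, adjusted p = 0.953, limma). The coefficient of variation was 32.1% in controls and 13.7% in knockout lungs, a difference that was not tested. Srebf1 shares 109 bases with Rai1 on the opposite strand, which reached at most 30.3 TPM, and whether the counting used strand is not given in the sources used here. Genes that overlap Acaca, Elovl6 or Hmgcs1 reached at most 0.66 TPM.

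Along the fatty acid route, Acaca (ENSMUSG00000020532, chr11:84129672-84401651, plus strand) stood at 10.00, 10.56, 8.72, 9.15, 7.01 and 6.48 TPM in controls and at 7.60, 6.85, 8.88, 6.91, 7.65 and 9.09 TPM in knockout lungs. The knockout lungs filled a narrow band inside the range of the controls. The means were 8.65 ± 1.62 and 7.83 ± 0.957 TPM (SD, n = 6 each), the log2 fold change -0.12 (95% interval -0.45 to 0.21, adjusted p = 0.743, limma). Fasn (ENSMUSG00000025153, chr11:120805846-120824547, minus strand) stood at 199.67, 166.99, 152.11, 199.00, 136.84 and 95.60 TPM in controls and at 198.05, 107.51, 136.55, 100.22, 127.78 and 127.92 TPM in knockout lungs. Knockout 1 lay close to the 2 highest controls, and the other 5 knockout lungs lay at or below 136.55 TPM. The means were 158.4 ± 39.7 and 133.0 ± 34.7 TPM (SD, n = 6 each), with a log2 fold change of -0.24 (95% interval -0.70 to 0.21, adjusted p = 0.614, limma).

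Elovl6 (ENSMUSG00000041220, chr3:129532355-129638495, plus strand) was the least abundant member, at 3.28, 2.03, 1.05, 1.62, 1.37 and 1.44 TPM in controls and 1.04, 0.92, 2.28, 0.79, 2.27 and 0.85 TPM in knockout lungs. Of the knockouts, 4 lungs lay below every control and the other 2 above 5 of the 6 controls. The means were 1.80 ± 0.794 and 1.36 ± 0.715 TPM (SD, n = 6 each), with a log2 fold change of -0.26 (95% interval -0.74 to 0.23, adjusted p = 0.623, limma), and at this level the added 1 TPM shrinks the fold change. Scd1 (ENSMUSG00000037071, chr19:44394455-44407879, minus strand), the most abundant member, stood at 292.33, 328.88, 346.44, 228.94, 76.17 and 127.65 TPM in controls and at 308.50, 204.25, 342.18, 200.62, 275.44 and 409.62 TPM in knockout lungs. Controls 5 and 6 lay below every knockout lung. The means were 233.4 ± 110.7 and 290.1 ± 81.2 TPM (SD, n = 6 each), with a log2 fold change of 0.45 (95% interval -0.31 to 1.21, adjusted p = 0.581, limma). It was positive in each of 21 alternatives (0.17 to 0.64), some of which could not change it, as for Insig1.

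**Figure D2:**
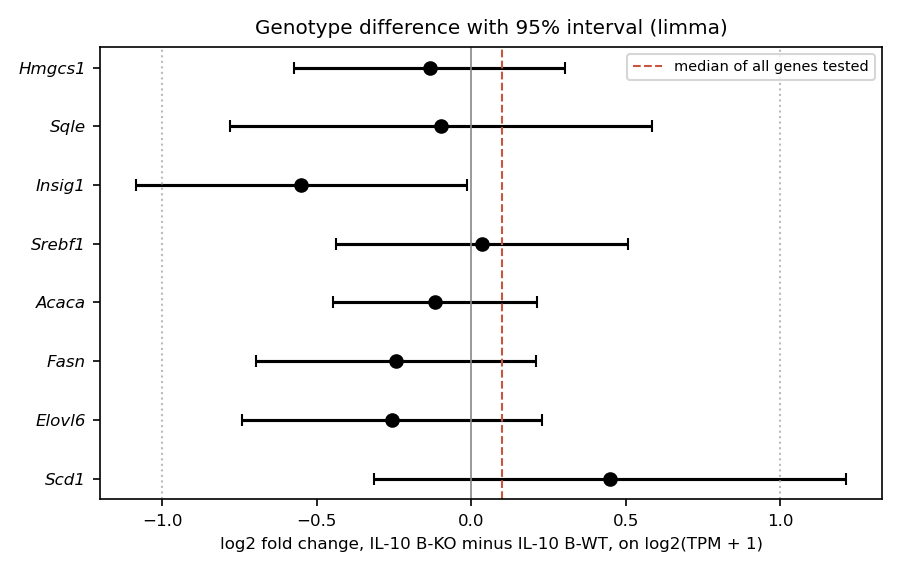
Log2 fold change of each gene, knockout minus control on log2(TPM + 1) (horizontal axis), as a point with its 95% interval from limma. The dashed line is the median of all genes tested (0.10) and the dotted lines mark a log2 fold change of -1 and 1. The interval of Insig1 ends at -0.01 and the other 7 include 0, and the intervals of Insig1 and Scd1 reach past -1 and 1.

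The intervals bound what these lungs could show. For Acaca, Hmgcs1, Srebf1, Fasn and Elovl6 they lay within a log2 fold change of -0.74 to 0.51, so that a doubling or a halving on the log2(TPM + 1) scale fell outside them. For Elovl6, at a mean of 1.80 TPM in controls, a halving of the TPM is a smaller step on that scale. Its interval (-0.74 to 0.23) does not exclude such a halving. The interval of Sqle lay within -0.78 to 0.58. Those of Insig1 and Scd1 did not exclude a log2 fold change of 1 in the direction of their difference.

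Single lungs weighed on these small differences without turning the sign of Fasn, Elovl6, Acaca or Hmgcs1. Fasn ran from -0.38 without control 6 to -0.17 without control 1, and Elovl6 from -0.36 without knockout 3 to -0.12 without control 1. Acaca ran from -0.19 without control 6 to -0.062 without control 2, and Hmgcs1 from -0.24 without knockout 5 to -0.046 without control 2. With both control 1 and knockout 2 left out, the log2 fold change was -0.11 for Fasn, -0.075 for Elovl6, -0.044 for Acaca, -0.075 for Hmgcs1, -0.17 for Sqle, 0.12 for Srebf1 and 0.64 for Scd1, so that every member kept its sign under that omission.

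Since TPM are scaled per length, levels can be set side by side. The mean over 12 lungs was 261.8 TPM for Scd1 and 145.7 TPM for Fasn, and Scd1 exceeded Fasn in 11 of 12 lungs. Srebf1 followed at 38.3 TPM, below Fasn in all 12 lungs. Hmgcs1 at 18.8 TPM and Insig1 at 17.2 TPM did not separate, with Hmgcs1 above Insig1 in 6 of 12 lungs, and neither did Sqle at 8.32 and Acaca at 8.24 TPM, with Sqle above Acaca in 5 of 12. Elovl6, at 1.58 TPM, lay below Acaca in all 12 lungs.

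The same lungs tended to be high or low for several members. Control 2 was the highest of 12 for 4 members (Acaca, Hmgcs1, Sqle and Insig1), control 5 the lowest for Srebf1, Scd1 and Hmgcs1, and knockout 4 was among the 3 lowest for all 8. Control 2 stood apart in B cell markers, with a sum of 795.0 TPM against 66.1 to 116.1 TPM in the other controls. Immunoglobulin genes held 15.4% of its TPM and at most 2.19% in the other controls. Without control 2 the log2 fold change of Insig1 was -0.42. The part of B cells in these levels was not tested. Control 5 also had the lowest summed level of 10 alveolar type 2 markers, 3417 TPM, where the other controls had 9239 to 17950 TPM and the knockout lungs 12510 to 22420 TPM. Among these, Sftpc, the surfactant protein that defines this cell, was at 2548 TPM in control 5, at 6779 TPM in control 6 and at 8697 to 16424 TPM in the other 10 lungs. All 10 markers were higher in knockout lungs (median log2 fold change 0.85), 6 with an unadjusted p of at most 0.05 and none past the threshold. Without control 5 the log2 fold change of Scd1 was 0.17 and that of Srebf1 -0.14. This lung was low beyond the alveolar type 2 list. It had the lowest sums of the 12 lungs for markers of alveolar type 1 cells (1414 TPM), of monocytes and interstitial macrophages (173.1 TPM) and of neutrophils (298.6 TPM). Its genes above 0 were the fewest (21380), while its adipocyte sum was the highest (524.7 TPM). The part of alveolar type 2 cells in these levels was not tested, and in whole lung fewer cells of a type and less RNA per cell cannot be told apart.

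Fat cells also express these enzymes, and adipocyte markers varied among the lungs. Of 8 adipocyte markers 6 passed the filter, and the summed level of the list ran from 5.13 to 524.7 TPM in controls (median 115.5) and from 12.4 to 87.1 TPM in knockout lungs (median 26.0). The high sums were in control 5 at 524.7 TPM and control 4 at 448.8 TPM, and Adipoq, the adipocyte hormone, measured 41.8 and 22.4 TPM there against 0 to 7.12 TPM in the other 10 lungs. All 6 were lower in knockout lungs (median log2 fold change -1.01), and none reached an unadjusted p of 0.05. Lep and Ucp1 were at most 0.78 and 0.09 TPM in any lung. Among immune cells, 8 of 8 neutrophil markers were higher (median log2 fold change 1.52, 7 with an unadjusted p of at most 0.05) and so were 8 of 8 markers of monocytes and interstitial macrophages (1.42, 6), with none past the threshold in either list. Alveolar macrophage markers were higher in 7 of 9 (0.38, 1) and those of proliferating cells in 6 of 6 (0.96, 2). Higher were also 3 of 8 alveolar type 1, 0 of 5 club, 3 of 6 T cell, 1 of 8 endothelial and 4 of 8 fibroblast markers, none past the threshold. The part of these cells in the lipid gene levels was not tested.

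Across the 12 lungs all 28 pairs of the 8 genes had a positive Pearson correlation of log2(TPM + 1), from 0.110 to 0.865 with a median of 0.487. Of all pairs of tested genes 73.7% were positive and 37.6% were at or above that median, so that the members as a whole lay near the background. Within controls 27 of the 28 pairs were positive with a median of 0.731, where 78.5% of all pairs were positive and 31.9% at or above it. Within knockout lungs 23 were positive with a median of 0.506, against 59.5% and 27.0% of all pairs, and of the 15 pairs between the sterol and the fatty acid genes 10 were positive there. Over the 12 lungs 7 member pairs passed an adjusted p of 0.05 over the 28 for both Pearson and Spearman (two-sided permutation tests). These tests are against a correlation of 0, while most pairs of all genes were positive. The share of all gene pairs that would pass, or that reach the r of single member pairs below, was not determined. The count and these r are therefore a description. The closest group was the sterol trio. Hmgcs1 and Sqle gave r = 0.861 and rho = 0.895 (n = 12, permutation p = 0.00021 and 0.00026, adjusted 0.00588 and 0.00728). Sqle and Insig1 gave r = 0.800 and rho = 0.797 (n = 12, permutation p = 0.00208 and 0.00295, adjusted 0.0194 and 0.0284). Hmgcs1 and Insig1 gave r = 0.771 and rho = 0.776 (n = 12, permutation p = 0.0028 and 0.00469, adjusted 0.0196 and 0.0284). Without the 2 lungs farthest from the median of the first gene these 3 became 0.777, 0.792 and 0.723. Within genotypes they were 0.905, 0.826 and 0.762 in the 6 controls and 0.828, 0.970 and 0.858 in the 6 knockout lungs. With 6 lungs the two-sided exact permutation p in controls was 0.00139, 0.0528 and 0.0847, so that only Hmgcs1 with Sqle was below 0.05 there, and in knockout lungs it was 0.0417, 0.00139 and 0.0333, all without adjustment.

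**Figure D3:**
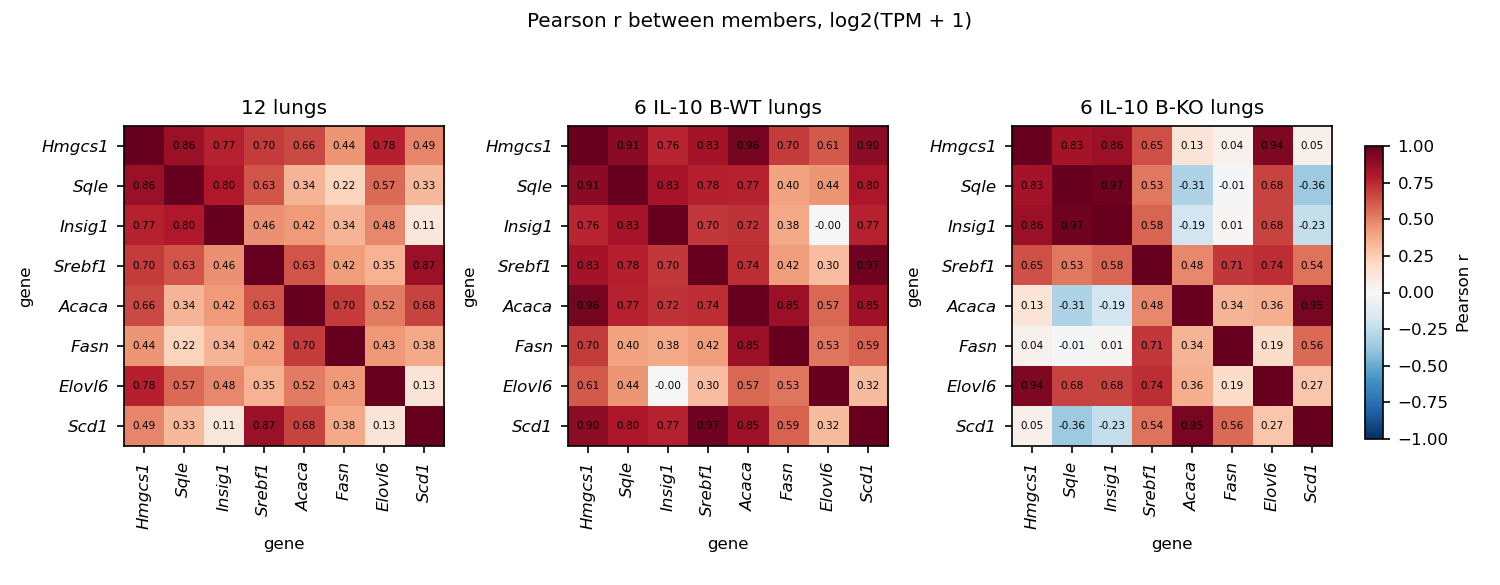
Pearson r of log2(TPM + 1) between the 8 genes over 12 lungs (left), the 6 control lungs (middle) and the 6 knockout lungs (right), from -1 (blue) to 1 (red) and printed in each cell. Hmgcs1, Sqle and Insig1 form a red block in all 3 panels, with r of at least 0.762, while several pairs of these with Acaca, Fasn or Scd1 are near or below 0 in the right panel.

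Srebf1 and Scd1 gave r = 0.865 and rho = 0.748 (n = 12, permutation p = 0.00074 and 0.00707, adjusted 0.0104 and 0.0284). This r was 0.973 in controls and 0.540 in knockout lungs, and 0.666 without the 2 lungs farthest from the median. Fasn and Acaca, which catalyze consecutive steps, gave r = 0.700 and rho = 0.748 (n = 12, permutation p = 0.0139 and 0.00709, adjusted 0.0487 and 0.0284), with 0.854 in controls, 0.340 in knockout lungs and 0.597 without the 2 farthest lungs. Over the 10 pairs of fatty acid genes the median r was 0.477, and 2 pairs passed both tests. Scd1 and Acaca (r = 0.675) passed for Pearson alone.

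Between the branches, Elovl6 and Hmgcs1 gave r = 0.781 and rho = 0.762 (n = 12, permutation p = 0.00358 and 0.00517, adjusted 0.0201 and 0.0284), with 0.611 in controls, 0.935 in knockout lungs and 0.768 without the 2 farthest lungs. Srebf1 and Hmgcs1 gave r = 0.703 and rho = 0.748 (n = 12, permutation p = 0.00695 and 0.00704, adjusted 0.0324 and 0.0284), with 0.834 in controls, 0.647 in knockout lungs and 0.757 without the 2 farthest. The median r of the 15 pairs between branches was 0.461 over all lungs, 0.724 within controls and 0.0542 within knockout lungs. The difference between the genotypes was not tested.

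For each member, the 3 tested genes whose deviations from the genotype means followed it most closely over the 12 lungs were found among the other genes. For Hmgcs1 they included Rrp15 (r = 0.961) and Rpn1 (0.956). For Insig1 they included Sqle (0.905) and Fdps (0.899), the synthase of farnesyl diphosphate. Sqle had Tubb4b (0.942), the sterol demethylation enzyme gene Msmo1 (0.942) and Bzw2 (0.937). Sqle, Fdps and Msmo1 belong to the list of cholesterol synthesis enzymes. None of the 15 entries of the fatty acid genes was in the lists of lipid genes. Srebf1 had Tead1 (0.983), Ndst1 (0.983) and Snrpf (0.969), and Scd1 had Zfp605 (0.960), Akap5 (0.957) and Pde7b (0.955). Acaca had Srp54a (0.969), Gm20536 (0.914) and Fam177a (0.906), Elovl6 had Creb3l1 (0.952), Khdrbs3 (0.949) and Rnd3 (0.932), and Fasn had Gjb1 (0.854), Hddc3 (0.844) and Dhrs11 (0.838). These are the highest of all tested genes over only 12 lungs and are given as a description.

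Several members have a relative of the same family with another place in metabolism, and a ratio within a lung does not depend on how the library is scaled. The ratios were chosen after the values had been seen and tested with a two-sided exact permutation test on the log2 ratio, and none passed after adjustment over the 6 that were tested, of which 5 are given. Insig1 relative to Insig2, which encodes the second retention protein, was 0.834, 1.51, 1.24, 0.881, 1.26 and 0.905 in control lungs and 0.646, 0.965, 0.588, 0.634, 0.897 and 0.472 in knockout lungs. Of the latter, 4 lay below every control. The mean was 1.10 ± 0.271 against 0.700 ± 0.190 (SD, n = 6 each, log2 difference -0.67, exact permutation p = 0.0195, adjusted p = 0.0779), while Insig2 itself was at 18.9 ± 4.44 and 19.8 ± 4.56 TPM. The unadjusted p of this ratio stayed at or below 0.05 in all 14 alternatives run on it (0.0130 to 0.0390).

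Scd1 relative to Scd2, a second stearoyl-CoA desaturase, was 2.08, 2.15, 1.67, 2.26, 1.89 and 1.66 in control lungs and 2.63, 1.99, 2.55, 2.04, 4.31 and 2.94 in knockout lungs. Scd1 and Scd2 are close in sequence, so that reads may have been split between them with error. Here 4 knockout lungs lay above every control, and knockout 5 stood highest. The mean was 1.95 ± 0.252 against 2.74 ± 0.851 (SD, n = 6 each, log2 difference 0.45, exact permutation p = 0.0260, adjusted p = 0.0779). The unadjusted p rose above 0.05 without control 3 (0.0563), control 6 (0.0563) or knockout 5 (0.0519). Acaca relative to Acacb, the carboxylase whose malonyl-CoA restrains fatty acid oxidation at the mitochondrion, was 1.84 ± 0.661 against 2.58 ± 0.829 (SD, n = 6 each, exact permutation p = 0.102, adjusted p = 0.185). Over 14 alternatives the unadjusted exact p of this ratio ran from 0.00794 to 0.25 and was at most 0.05 in 3. Without control 1 it was 0.0303 and without knockout 2 0.0476. Without both, the 5 remaining knockout lungs (2.14 to 4.03) lay above the 5 remaining controls (1.05 to 2.13), with a log2 difference of 0.79 in place of 0.50. The p of 0.00794 (exact permutation test) was the smallest that 5 lungs against 5 allow, without adjustment. Both lungs were left out because they ran against their groups, which favours such a separation, so that this p is no independent support. Srebf1 relative to Srebf2, the regulator most tied to sterol synthesis, was 0.780 ± 0.166 against 0.947 ± 0.187 (SD, n = 6 each, exact permutation p = 0.123, adjusted p = 0.185). Over 14 alternatives its unadjusted exact p ran from 0.0238 to 0.255, and it was at most 0.05 only without control 3 (0.0238). Elovl6 relative to Elovl5, another fatty acid elongase, gave exact permutation p = 0.617 (n = 6 each, adjusted p = 0.740).

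**Figure D4:**
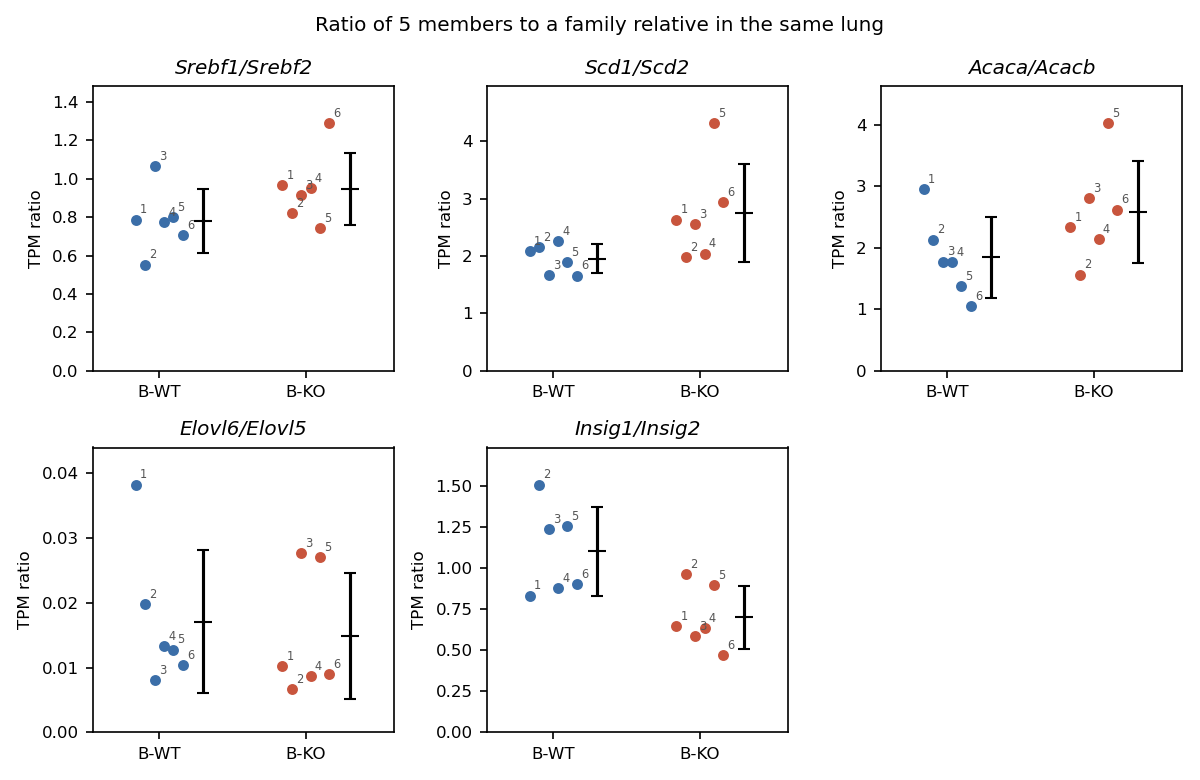
Ratio of the TPM of 5 genes to that of a family relative in the same lung (vertical axes, each from 0) in 6 control (blue) and 6 knockout (red) lungs, with replicate numbers and the mean ± SD. For Insig1/Insig2, 4 knockout lungs lie below all controls, and for Scd1/Scd2, 4 lie above all controls.

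The wider pathways gave no gene past the threshold with all 12 lungs. Of 20 cholesterol synthesis enzymes, all tested, 6 were higher and 14 lower in knockout lungs (median log2 fold change -0.08), and none reached an unadjusted p of 0.05. The 2 smallest p belonged to Mvd, the decarboxylase of the mevalonate pathway (0.84, adjusted p = 0.461), and Ebp, a sterol isomerase (0.39, adjusted p = 0.474). Of 13 genes of sterol sensing and uptake 12 were tested, 8 higher and 4 lower, with a median of 0.06. Npc2, which carries cholesterol out of the lysosome, was at 266.4 ± 125.1 against 446.2 ± 81.5 TPM (SD, n = 6 each, log2 fold change 0.87, adjusted p = 0.306), and its partner Npc1 had a log2 fold change of 0.53 (adjusted p = 0.426).

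Of 17 genes of fatty acid synthesis, elongation and desaturation, all tested, 5 were higher and 12 lower with a median of -0.12. Acacb measured 3.38, 4.95, 4.91, 5.17, 5.08 and 6.19 TPM in controls and 3.26, 4.38, 3.16, 3.23, 1.90 and 3.47 TPM in knockout lungs. Control 1 apart, every control lay above every knockout lung. The mean was 4.95 ± 0.902 against 3.23 ± 0.794 TPM (SD, n = 6 each, log2 fold change -0.50, unadjusted p = 0.0133, adjusted p = 0.306, limma). Elovl1, which extends very long chains, had a log2 fold change of 0.68 (adjusted p = 0.353), and Acss2, which activates acetate, one of -0.64 (adjusted p = 0.413).

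In the lists of fatty acid oxidation and of sterol efflux more genes were higher than lower, as were 9580 of all 15148 genes. Of 12 fatty acid oxidation genes 11 were tested, 9 higher and 2 lower with a median of 0.33, and 3 reached an unadjusted p of 0.05 or less. Cpt1a, which admits fatty acids to the mitochondrion and is the step that malonyl-CoA inhibits, measured 55.80, 44.51, 35.37, 34.85, 31.83 and 40.53 TPM in controls and 48.91, 53.35, 82.56, 54.48, 71.39 and 69.82 TPM in knockout lungs. All knockout lungs lay above 5 of the 6 controls. The mean was 40.5 ± 8.76 against 63.4 ± 13.1 TPM (SD, n = 6 each, log2 fold change 0.64, unadjusted p = 0.00303, adjusted p = 0.169, limma). Slc25a20, the carnitine carrier that follows it, had a log2 fold change of 0.68 (adjusted p = 0.237) and Acadl, a dehydrogenase of fatty acid oxidation, one of 0.45 (adjusted p = 0.328).

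Of 10 genes of the sterol-activated receptor LXR and of sterol efflux 9 were tested, 7 higher and 2 lower, with a median of 0.53. Soat1, which esterifies cholesterol for storage, was at 27.6 ± 21.1 against 47.9 ± 12.3 TPM (SD, n = 6 each, log2 fold change 1.04, adjusted p = 0.352). Lpcat3, a phospholipid acyltransferase, and Abcg1, a sterol exporter, had log2 fold changes of 0.53 (adjusted p = 0.413) and 0.56 (adjusted p = 0.459). Both lists include genes that macrophages express, and the marker lists of neutrophils and of monocytes and interstitial macrophages were higher in knockout lungs as well. Their part in these values was not tested. The calls depended on control 1, whose myeloid marker sums were high. Without it, Npc2 (log2 fold change 1.07, adjusted p = 0.0452, limma) and Soat1 (1.35, adjusted p = 0.0497, limma) passed the threshold, as did 576 of 14943 genes in all. With both control 1 and knockout 2 left out, 1430 of 14762 genes passed, so that calls were common over the whole table. Among them, Mvd (1.37, adjusted p = 0.0249, limma), Abca1 (1.33, adjusted p = 0.0248), a cholesterol exporter, and Ch25h (2.13, adjusted p = 0.0253), which makes 25-hydroxycholesterol, had higher values. Acss2 (-1.01, adjusted p = 0.0143) passed with a lower one. Npc2 (1.13, adjusted p = 0.0210) and Soat1 (1.53, adjusted p = 0.0107) passed as well. Whether the lists held more calls than the rest of the table was not tested. Under the same omission no member passed, and Insig1 had a log2 fold change of -0.69 (adjusted p = 0.108, limma). Abca1 and Ch25h were named after their values were seen.

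**Figure D5:**
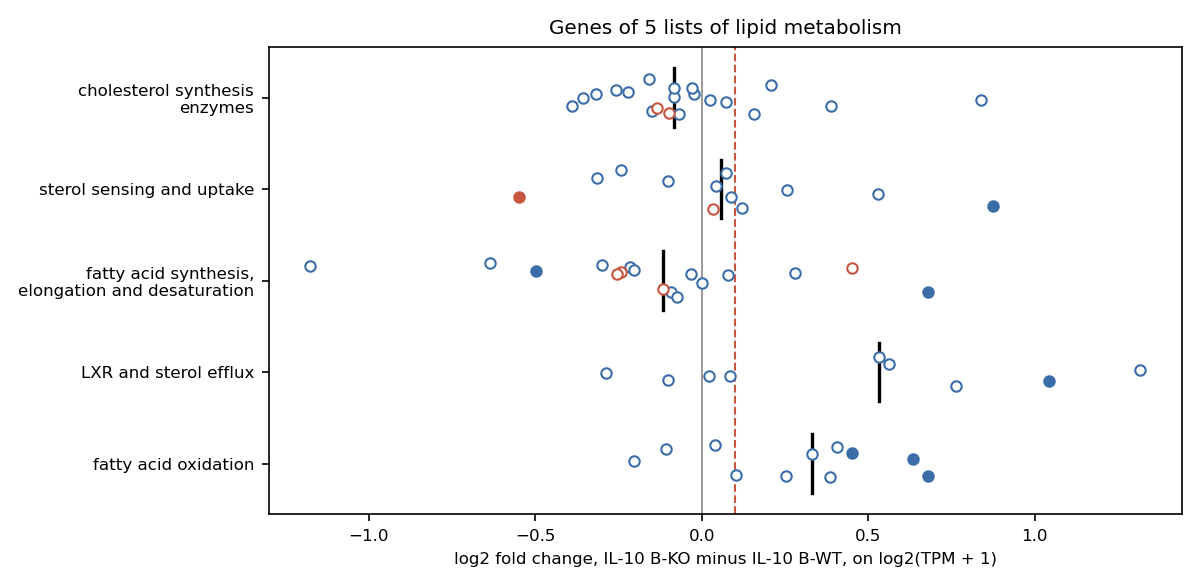
Log2 fold change, knockout minus control on log2(TPM + 1) (horizontal axis), of each tested gene of 5 lists (rows, with vertical scatter for legibility). Members are red and other genes blue, filled where the unadjusted limma p is at most 0.05, with a black bar at the median of the list and a dashed line at the median of all genes. The medians are -0.08, 0.06 and -0.12 for the upper 3 lists and 0.53 and 0.33 for the lower 2.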

How the data were processed

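Total RNA from whole lung of 12 mice, 6 for each genotype and each a separate animal, had been sequenced, and the authors deposited 1 table of TPM per gene, which they calculated with RSEM for each library on its own. The submitters' processing notes name fastp, HISAT, RSEM and the build GRCm38.p5, and the versions are not given in the sources used here. TPM are scaled to gene length and to a common total (991646 to 994430 per library over the table), so that depth is unknown, no counting error can be given, and a group of genes with a large share lowers all others. Genes above 0 numbered 21380 to 24138 per library. No pair of libraries held identical values. Columns were assigned by their names, with 0 per-sample columns unused. The labels name no batch.

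Differences came from limma 3.58.1 (R 4.3.3), a linear model of log2(TPM + 1) on genotype followed by eBayes with a trend, over all 15148 genes that reached 1 TPM in 6 or more libraries, with Benjamini-Hochberg adjustment over these genes. A fold change on this scale understates the change of low genes. The fit was also run on simulated data with independent noise for each gene. Genes in these lungs varied together, so that this run says nothing of the error rate here. For single values the exact permutation test, two-sided, ran over 924 arrangements with a smallest p of 0.002165. Correlations were tested with 100000 permutations and adjusted over 28 pairs, and Pearson r was also computed over all pairs of tested genes as background (Python 3.11.15, NumPy 2.4.6). Coordinates are those of GENCODE on GRCm38 and promoters those of RefSeq on GRCm38.p6. The text names all 8 members, the 3 genes most correlated with each, and in each list the genes past the threshold and the 3 with the smallest p. Thus list genes appear with small p by choice. A few genes that this rule names, and 1 family ratio, are not reported here. Il10 stands as a check of the deletion and did not separate the groups. Cd79a is given as the gene that carries the Cre, and its level does not show whether Il10 was deleted. The family relatives were named after their values were seen. The members and lists were chosen with earlier results of these data known.

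The fit was repeated with array quality weights, without the trend, without the minimum fold change, with the replicate number as a block, with quantile-normalized or median-centred values, with TPM rescaled after removing immunoglobulin genes, with a pseudocount of 0.1, with no filter or one on a mean TPM of 5, and without each lung, or without control 1 (IL-10 B-WT) and knockout 2 (IL-10 B-KO) at once.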

Additional observations from a re-analysis of the deposited data

Results flagged for a closer look

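Among 16 groups of 6 lungs, 1 for each gene and genotype, a single lung stood far from the others of its group. Fasn in IL-10 B-KO replicate 1 was at 198.05 TPM, and its gap to the next lung made up 0.629 of the range of the group, which exceeds the critical value of Dixon's test for 6 samples. Chance gives such a lung in about 1 in 20 groups.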

How the results depend on the processing

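No member passed the threshold in any of the 23 alternatives (1 of them without the minimum fold change). In the others 6 (no filter) to 1430 genes of the whole table passed (1430 with both control 1 and knockout 2 left out, 318 with array weights, 75 as reported). The number of members higher in IL-10 B-KO lungs, 2 as reported, was 1 with array weights, median centring or quantile normalization and 1 with immunoglobulin genes removed before scaling, and 1 to 3 when single lungs were left out. The number with an unadjusted p of at most 0.05, 1 as reported, was 0 to 1 when single lungs were left out. Srebf1 turned from 0.03 to -0.020 without immunoglobulin genes, -0.10 with quantile normalization, -0.073 with median centring and -0.18 with array weights, and ran from -0.14 to 0.13 when single lungs were left out. Sqle ran from -0.29 to 0.10 likewise. The median of all genes moved by -0.107 with median centring and with array weights. The median correlation of the pairs, 0.487, was 0.731 within controls and 0.506 within knockout lungs. With a mean TPM of at least 5, Elovl6 was not tested.

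The log2 ratio of Elovl6 to Elovl5, -0.24, ran from -0.47 to 0.03 when single lungs were left out and was 0.21 with both control 1 and knockout 2 left out. These alternatives on ratios were chosen after seeing the data. The cause of these changes was not tested.

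Samples with the same replicate number did not deviate together (correlations of -0.292 to 0.0458, and 0 libraries closest to their own number), so that these values give no ground for pairing. Whether a number marks a shared litter or day is not given in the sources used here. With the number as a block, 45 genes passed, 0 members passed, 1 had an unadjusted p of at most 0.05 (limma) and 2 were higher. The exact sign-change p was 0.0313 for the Insig1/Insig2 and 0.125 for the Scd1/Scd2 ratio. Both rest on pairing by number and are unadjusted, and the former is the smallest that 6 pairs allow.

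Depth being unknown, low values such as those of Elovl6 have no known counting error.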
